A study of Mus musculus with 6 samples.

Results

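Mature CD4+ T cells from the thymus of C57BL/6 mice were mapped for H3K4me3 and H3K36me3, and the 3 CD4 libraries of the 6 in the series are described here: 1 H3K4me3 library, 1 H3K36me3 library and 1 input with no antibody. They were chosen by their labels. Chromatin was cut with micrococcal nuclease, an enzyme that digests the DNA between nucleosomes, and was precipitated with rabbit polyclonal antibodies. Mature CD8+ T cells of the same strain and organ were handled likewise, and their libraries appear below only as a second reading or as a second input. The labels name no age, sex or number of mice. Each group holds 1 library, so no value has a replicate, no p-value is given, and intervals (exact, 95%) cover counting error only. The labelled cell type was not checked against marker genes, because no gene annotation of mouse build mm9 was used here.

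H3K4me3, trimethylation of lysine on the tail of histone H3, is laid down by the SET1 and MLL enzymes, mostly at the promoters of active and poised genes and often over unmethylated CpG islands. H3K36me3 is laid down by SETD2, an enzyme carried by elongating RNA polymerase II, so it lies over the bodies of transcribed genes and usually grows from the start of a gene towards its end. The 2 marks therefore usually sit next to each other along an active gene. In T cells, as in other cells, their pairing is used to tell active genes from genes whose promoter is marked without full transcription.

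Reads on chromosomes 1 to 19 were counted in 1236171 windows of 2 kb. There were 10491937 such H3K4me3 reads, 6599587 H3K36me3 reads and 9913123 input reads. A window with levels held on average 8.44 input reads and 5.43 H3K36me3 reads, so values of single windows are imprecise and most results below are sums over many windows. Distinct positions made up 54.3% of the H3K4me3 reads, 91.1% of the H3K36me3 reads and 97.2% of the input reads. A total of 138 windows with more than 50 input reads were left out of all levels. They held 5.16% of the H3K36me3 reads and 1.77% of the input reads. Windows without a read in any of the 3 libraries were left out too, which leaves 1153724 windows with levels.

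A window counted as an H3K4me3 window when it held at least 20 H3K4me3 reads and at least 4 times the input. Levels are RPM, reads scaled to each library's total on chromosomes 1 to 19, divided by the RPM of the input, with single windows set to at least 3 input reads. The H3K4me3 rule held for 22202 windows, 1.8% of all windows, while the CD8 input scored in place of H3K4me3 passed in 229, which is 0.0185%. The H3K4me3 windows had a median of 215 H3K4me3 reads and a median level of 31.4 times input. A window counted as an H3K36me3 window with at least 10 reads and 2 times input. This held for 116156 windows, 9.4% of all windows. This weaker rule also passes many windows without antibody. The CD8 input passed it in 5.49% of windows, and in 3.09% when thinned at random to the depth of H3K36me3.

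The marks had different shapes. Adjacent H3K4me3 windows formed 14895 runs, of which 8940 were a single window, 5054 were 2 windows and 901 were 3 or more. H3K36me3 windows formed 31785 runs with a median length of 4 kb. Of these, 15681 were a single window, 3048 were 20 kb or longer and the longest was 142 kb. The longest H3K4me3 run was 74 kb. Single windows were thus common for both marks, and the longest stretches were those of H3K36me3. The H3K36me3 rule passes many windows without antibody, as given above. The part of such passes in its single-window runs was not tested.

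In summed reads, H3K36me3 was low on H3K4me3 windows, rose on leaving them, was highest 6 to 18 kb away and was lowest far away. In the 22199 H3K4me3 windows with levels, H3K36me3 stood at 1.13 times input (interval 1.12 to 1.14). In the next window, 2 kb from centre to centre, it was 1.61 times input, and at 4 kb 2.01 times (2.00 to 2.02). It reached 2.18 times input (2.17 to 2.19) at 6 to 8 kb and stayed at 2.13 times at 10 to 18 kb. It then fell to 1.67 times at 20 to 48 kb, 0.974 times at 50 to 98 kb and 0.373 times (0.372 to 0.374) at 100 kb or more. The level at 6 to 8 kb was thus 5.85 times that of the far windows. The level in the H3K4me3 windows themselves was 3.04 times that of the far windows, so they were not free of H3K36me3 reads at this resolution.

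**Figure D1:**
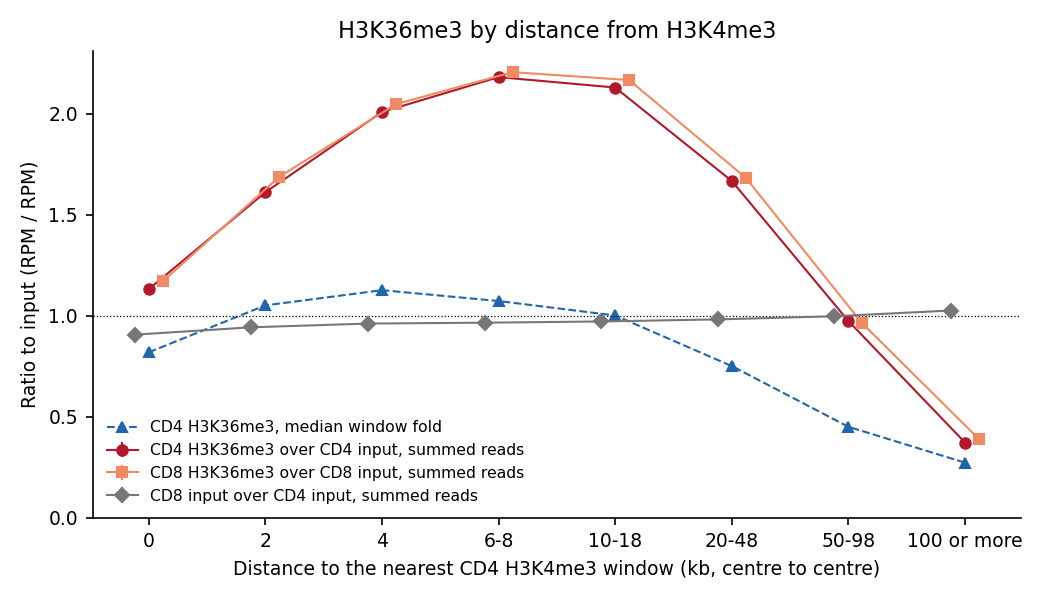
Level over input (vertical axis, RPM over RPM) in 8 classes of distance to the nearest CD4 H3K4me3 window (horizontal axis, kb). Circles are CD4 H3K36me3, squares CD8 H3K36me3 at the same windows and diamonds the CD8 input over the CD4 input, all from summed reads with 95% counting intervals, most of them smaller than the symbols. Triangles are the median of the single-window folds of CD4 H3K36me3. H3K36me3 climbs from 1.13 in the H3K4me3 windows to 2.18 at 6 to 8 kb and ends at 0.373, while the ratio of the inputs moves from 0.907 to 1.03.

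The rise was carried by part of the windows. The median single-window fold was 0.819 in H3K4me3 windows, 1.13 at 4 kb, 1.07 at 6 to 8 kb and 0.273 at 100 kb or more. From 0 to 6 to 8 kb the medians thus rose less than the sums did, while the medians too were lowest far away. At 20 to 48 kb the median was 0.751, below that of H3K4me3 windows, whereas the summed levels had the other order, 1.67 against 1.13. At 50 to 98 kb the median was 0.451. At 6 to 8 kb the 10th percentile of window folds was 0.250 and the 90th percentile 6.61. In H3K4me3 windows these percentiles were 0.215 and 2.57. The low ends of both ranges were thus close together, and the high ends were far apart.

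The input itself varied with distance, which bears on every ratio. H3K4me3 windows held a mean of 6.68 input reads against 8.95 at 6 to 8 kb. The CD8 input over the CD4 input was 0.907 (0.900 to 0.913) in H3K4me3 windows, 0.966 at 6 to 8 kb and 1.03 at 100 kb or more. This gradient without antibody is far smaller than that of H3K36me3. The CD8 H3K36me3 library, set against its own input at windows chosen in CD4 cells, gave 1.17 times input at 0 kb, 2.21 at 6 to 8 kb and 0.390 at 100 kb or more, close in shape to the CD4 values.

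The share of windows called for H3K36me3 followed the same course. It was 8.93% (8.56 to 9.31) among H3K4me3 windows, which is 1982 windows with both marks and lies near the 9.4% of all windows. The 9.4% also counts windows left out of levels, most of them without reads, so the share among windows with levels is somewhat higher. It was 22.0% at 2 kb, 28.3% at 4 kb, 30.3% (29.9 to 30.7) at 6 to 8 kb, 28.7% at 10 to 18 kb, 22.1% at 20 to 48 kb and 11.1% at 50 to 98 kb. Far windows passed in 1.08% of cases. The thinned CD8 input passed in 1.18% of H3K4me3 windows, in 3.06% at 6 to 8 kb and in 3.39% far away. Far windows thus passed less often than input does, since H3K36me3 lay well below input there.

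By reads, the marks were placed differently. H3K4me3 windows made up 1.92% of the windows with levels and held 76.3% of the H3K4me3 reads and 1.69% of the H3K36me3 reads, near their share of windows. The windows at 20 to 48 kb were 14.5% of the total and held 25.5% of the H3K36me3 reads. The windows at 10 to 18 kb were 8.13% and held 18.2%. Windows 100 kb or more away were 54.6% of the total and held 19.1%.

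The course was seen on each of the 19 chromosomes, which share libraries and are not replicates. H3K36me3 in H3K4me3 windows ranged from 0.918 times input on chromosome 13 to 1.32 on chromosome 11, with a median of 1.10. At 6 to 8 kb it ranged from 1.80 on chromosome 18 to 2.52 on chromosome 7. Far from H3K4me3 it ranged from 0.349 on chromosome 8 to 0.437 on chromosome 13. The ratio of the level at 6 to 8 kb to that at 0 kb was lowest on chromosome 14, at 1.62, and highest on chromosome 16, at 2.51. Chromosome 11 had the largest share of windows with either mark, 3.34% for H3K4me3 and 15.3% for H3K36me3.

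The next question was where the change from H3K4me3 to H3K36me3 lies at finer scale. Runs with no other H3K4me3 window up to 30 kb away were used, 6018 in all. The flanks at 4 to 20 kb were scored in the CD8 H3K36me3 library, so that the CD4 H3K36me3 reads did not choose the side. At 2 times the CD8 input or more, 2293 runs (38.1%) had CD8 H3K36me3 on 1 side, 567 (9.42%) on both and 3158 (52.5%) on neither. In CD4 cells the side with more CD8 H3K36me3 was also the higher in 2266 of the 2293 one-sided runs, which is 98.8%.

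Around the one-sided runs, CD4 H3K36me3 was high on the chosen flank, at 4.43 times input (4.41 to 4.46), and 0.792 times on the other flank. In steps of 200 bp from the centre of the H3K4me3 reads, H3K36me3 was 0.690 times input (0.631 to 0.754) at 0.6 kb on the chosen side and 1.05 times (0.975 to 1.12) at 1.2 kb. It was 1.89 times at 2 kb, 3.36 times at 4 kb and 4.45 times (4.24 to 4.68) at 10 kb. On the other side it was 0.604 times at 0.6 kb, 0.904 times at 2 kb and 0.749 times at 10 kb. In 2 kb steps the chosen side reached its highest value, 4.77 times input, at 12 kb and was still 3.53 times at 30 kb. The other side rose from 0.784 times at 20 kb to 1.11 times at 30 kb. CD8 H3K36me3 at 4 to 20 kb chose the groups and sides, and it was close to the CD4 values. Flank levels of these groups, and the course inside that span, are therefore partly set by the choice.

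H3K4me3 was nearly even about the same centres. It was 351 times input at the centre, 92.1 times at 0.4 kb on the side with H3K36me3 and 96.3 times at 0.4 kb on the other. At 1.2 kb it was 9.05 and 8.68 times. At 2 kb it was 2.01 and 1.72 times, and at 6 kb 0.276 and 0.341 times. At 1.2 kb, where the interval of H3K36me3 took in the input level, H3K4me3 was thus still well above input. From 2 to 4 kb on the chosen side H3K36me3 went from 1.89 to 3.36 times input, while H3K4me3 went from 2.01 to 0.453 times.

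H3K36me3 was not lowest at the very centre. In one-sided runs the central 200 bp held 1008 H3K36me3 reads against 1213 input reads, 1.25 times input (1.15 to 1.36). The bins at 0.6 kb held 588 reads on the low side and 725 on the high side, against 1463 and 1578 input reads. The CD8 input was 0.734 times the CD4 input at the centre, so the inputs differ there too. Runs with neither flank at 2 times the CD8 input showed 0.771 times input at the centre and 0.682 at 0.6 kb, a smaller step. Their CD4 flanks stood at 0.952 and 0.631 times input, above the 0.373 of far windows, so these runs were not free of H3K36me3 reads. The part of the input dip and of H3K4me3 reads in this central rise was not tested.

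**Figure D2:**
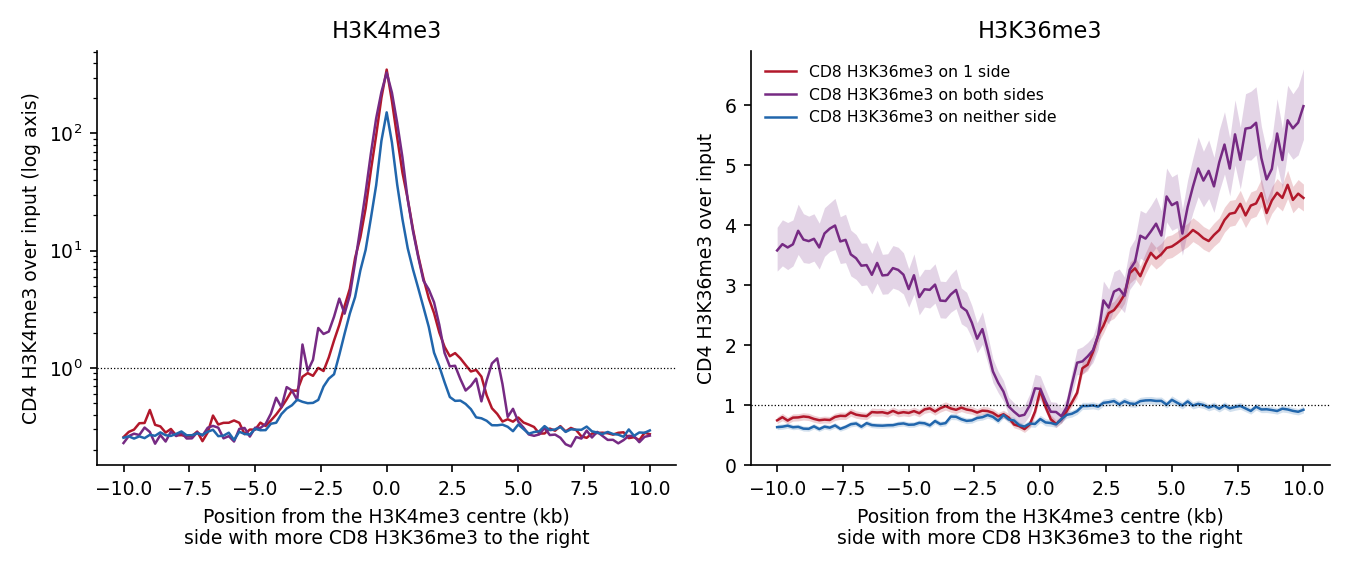
CD4 H3K4me3 (left, log axis) and CD4 H3K36me3 (right, linear axis) over CD4 input in 200 bp bins against the position from the H3K4me3 centre (kb), with the side of higher CD8 H3K36me3 on the right. Lines are runs with CD8 H3K36me3 on 1 side (2293), both sides (567) and neither side (3158), and bands are 95% counting intervals. H3K4me3 is nearly even about the centre in one-sided runs, while H3K36me3 rises from 1.05 times input at 1.2 kb to 4.45 at 10 kb on the right and stays below input at 10 kb on the left.

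In runs with CD8 H3K36me3 on both sides, CD4 H3K36me3 was 5.68 times input on the higher flank and 3.73 times on the other. Their H3K4me3 was also the highest, with a median of 783 reads per run. The median was 608 reads in one-sided runs and 156 in runs with neither. The 10th to 90th percentiles of these groups, 129 to 1659, 135 to 1351 and 36 to 826 reads, overlap over most of their range.

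The level of H3K4me3 went with the level of H3K36me3 beside it. Isolated runs were sorted by the highest H3K4me3 fold among their windows, and H3K36me3 was summed over both flanks at 4 to 20 kb, so the 2 values come from different windows and different input reads. Flank H3K36me3 was 1.03 times input (1.02 to 1.04) beside 886 runs of 4 to 8-fold and 1.08 times beside 778 runs of 8 to 16-fold. It was 1.45 times beside runs of 16 to 32-fold, 1.98 times at 32 to 64-fold, 2.37 times in the bin from 64-fold up and 2.70 times (2.68 to 2.71) beside the 1067 runs of the strongest bin, which starts where the one before it ends. Strong runs thus had 2.62 times the flank level of weak ones. The step between the 2 weakest bins was small, and each later step was larger.

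**Figure D3:**
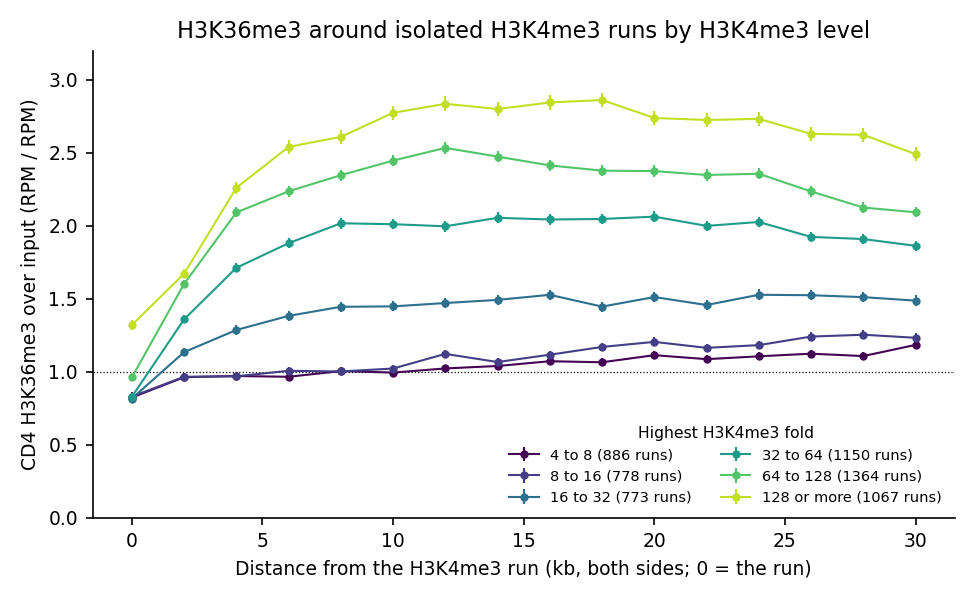
CD4 H3K36me3 over input (vertical axis) in 2 kb steps from isolated H3K4me3 runs (horizontal axis, kb, both sides summed), in 6 bins of the highest H3K4me3 fold of the run, with 95% counting intervals. Beside runs of 4 to 8-fold the line stays between 0.963 and 1.18 from 2 to 30 kb, and beside the strongest runs it reaches 2.86 at 18 kb.

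Counted per run, 15.8% (13.5 to 18.4) of the weakest runs had a flank at 2 times input or more, 140 of 886. This share was 35.6% at 16 to 32-fold, 54.3% at 32 to 64-fold and 73.8% (71.0 to 76.4) in the strongest bin, 787 of 1067. Both flanks passed in 4.29% of the weakest and 18.7% of the strongest runs. Across the 6018 runs Spearman's rho between the highest H3K4me3 fold and flank H3K36me3 was 0.482 and Pearson's r on log2 values was 0.484, as a description over runs that share libraries. Stronger runs were also wider, with a mean of 3.69 kb against 2.09 kb, and the part of width was not tested.

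**Figure D4:**
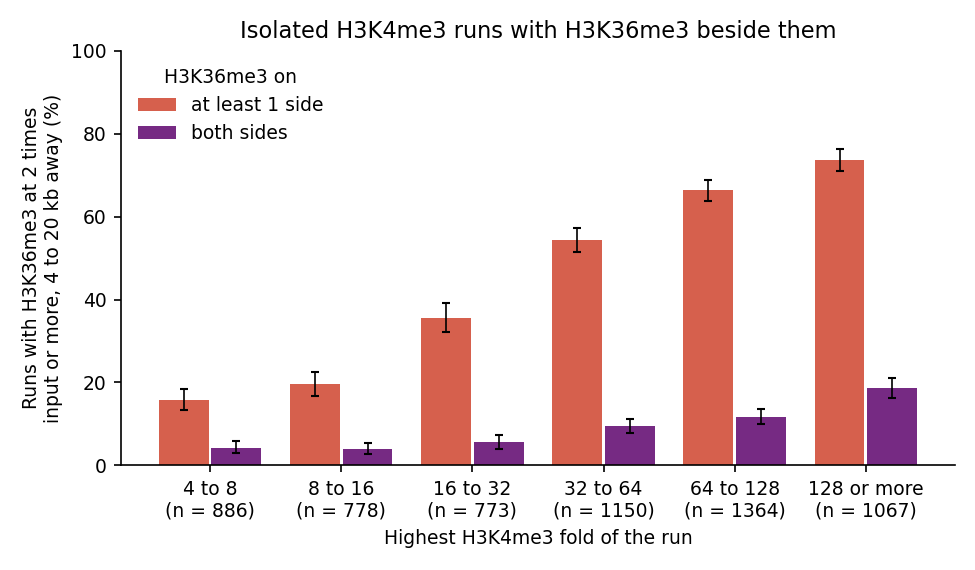
Share of isolated H3K4me3 runs (%) with CD4 H3K36me3 at 2 times input or more in at least 1 flank or in both flanks (4 to 20 kb away), by the highest H3K4me3 fold of the run. Bars start at 0 and carry exact binomial 95% intervals. The share with at least 1 flank goes from 15.8% in the weakest bin to 73.8% in the strongest.

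Read in the other direction, H3K4me3 of a run was higher where H3K36me3 beside it was higher, and levelled off. Isolated runs whose higher flank was under 0.5 times input had a median of 67 H3K4me3 reads (535 runs). The median was 134 reads at 0.5 to 1 times input, 306.5 at 1 to 2 times and 563 at 2 to 4 times. It was 653 at 4 to 8 times and 740 at 8 times or more (238 runs). The gain was thus large up to about 4 times input and small beyond. Runs of 2 or more windows made up 10.7% of those with the lowest flanks and 55.5% of those with the highest.

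Within the H3K4me3 windows themselves, the link between the levels of the marks was weak and moved with the input and with repeated reads. H3K36me3 was 1.15 times input in windows of 4 to 8-fold H3K4me3, 0.990 times at 32 to 64-fold and 1.70 times (1.67 to 1.74) in the strongest bin. Both folds are divided by the same input reads, and windows of the strongest bin held a mean of 4.50 CD4 input reads against 7.75 in the weakest bin. Over the CD8 input, which did not sort the windows, the same H3K36me3 reads gave 1.27 times at 4 to 8-fold and 1.55 times in the strongest bin, so the contrast between these bins shrank from 1.48 to 1.22. With 1 read kept per position, and windows sorted anew, it was 2.61. Spearman's rho over the 22199 windows was 0.0809 over the shared input, 0.0317 with H3K36me3 over the CD8 input and -0.0509 on reads without input. Its sign therefore depends on the input.

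Sorting the H3K4me3 windows by their H3K4me3 reads in place of the fold left a rise in the few windows with the most reads. H3K36me3 was 1.13 times input at 50 to 100 H3K4me3 reads, 0.994 times at 400 to 800 reads and 2.28 times (2.17 to 2.40) in the 350 windows with 1600 reads or more. With 1 read kept per position the last value was 2.36. The CD8 H3K36me3 library gave 2.53 times its input in these 350 windows and 1.11 times at 400 to 800 reads. Windows of 20 to 50 reads stood at 1.54 times the CD4 input and 1.35 times the CD8 input. They held a mean of 5.43 CD4 input reads, against 7.29 at 50 to 100 reads. All these windows also had to reach 4 times the CD4 input, so at few reads the value over that input is partly set by the rule. CD8 H3K36me3 over its own input was 1.21 times at 20 to 50 reads and 1.14 times at 50 to 100 reads.

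Wide runs held more H3K36me3 than narrow ones. Runs of a single window stood at 0.869 times input (0.857 to 0.880) and runs of 2 windows at 1.07 times. In the 901 runs of 3 or more windows, end windows stood at 1.84 times and inner windows at 2.53 times (2.46 to 2.60), although inner windows had more H3K4me3, 107 times input against 44.3 at the ends. In the 93 runs of 5 or more windows, inner windows reached 3.98 times, and 50.7% of them were H3K36me3 windows. These 379 windows are part of the 1352 inner windows above, so the contrast of inner with end windows rests in large part on 93 runs. The longest run, of 74 kb, is among them. End windows of these runs were not scored apart. The share of H3K36me3 windows was 4.16% in runs of a single window and 7.85% in runs of 2 windows.

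The widest run on the chromosomes named here covered 74 kb at chromosome 14:54774001-54848000. It held 9992 H3K4me3, 1107 H3K36me3 and 289 input reads, 32.7 and 5.75 times input. The run of 24 kb at chromosome 9:32502001-32526000 held 6021, 340 and 81 reads, 70.2 and 6.31 times input. Its left flank had H3K36me3 at 0.800 times input and its right flank at 7.34 times. The run of 22 kb at chromosome 11:52078001-52100000 held 8967, 450 and 63 reads, 134 and 10.7 times input. There H3K36me3 was on the left, with 7.99 times input against 1.01 on the right. H3K36me3 summed over each of these 3 runs was above input.

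The 3 H3K4me3 windows with the highest lower bound of H3K36me3 held many reads of both marks. Each mark has its own library, so counts in 2 kb do not show both on the same nucleosome or in the same cell. Chromosome 5:143666001-143668000 held 1911 H3K4me3 and 116 H3K36me3 reads with 3 input reads, and CD8 cells had 1895, 105 and 8. Chromosome 8:74844001-74846000 held 1990 and 115 reads with 3 input reads, and CD8 cells 2050, 98 and 3. Chromosome 6:41496001-41498000 held 568 and 97 reads with 4 input reads, and CD8 cells 85, 130 and 5. Selection by fold favours windows with few input reads, and the H3K36me3 folds, 58.1, 57.6 and 36.4, have intervals of 19.4 to 286, 19.2 to 283 and 13.8 to 136.

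The highest H3K4me3 folds went with differing H3K36me3. Chromosome 8:3354001-3356000 had 2835 H3K4me3, 30 H3K36me3 and 3 input reads, with H3K36me3 at 0.751 times input in the left flank and 8.18 in the right. Chromosome 6:48656001-48658000 had 3063, 42 and 4 reads, with 6.96 times on the left and 1.43 on the right. Chromosome 4:155078001-155080000 had 2246, 5 and 3 reads, with 0.563 and 3.73 times. All 3 thus had 1 flank at 2 times input or more and 1 flank below that. Among all 2798 runs of the strongest H3K4me3 bin, isolated or not, 78.2% had at least 1 such flank and 24.7% had both. A high flank on 1 side only was therefore common among strong runs and not particular to these 3.

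The windows with the highest lower bound of the H3K36me3 fold held few H3K4me3 reads. Chromosome 1:58896001-58898000 had 133 H3K36me3, 3 H3K4me3 and 3 input reads and lay 36 kb from the nearest H3K4me3 window. Chromosome 11:115986001-115988000 had H3K36me3 reads at 109 distinct positions, 1 H3K4me3 read and 0 input reads, at 4 kb. Chromosome 2:91504001-91506000 had 460, 12 and 21 reads at 12 kb, and its H3K36me3 reads fell on 263 positions. CD8 H3K36me3 reads in these windows numbered 139, 103 and 375, and CD8 H3K4me3 reads were 0 in each, a count that allows up to 3 reads.

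Among isolated runs, 535 of 6018 had even the higher flank under 0.5 times input, and in a further 1310 it was 0.5 to 1 times input. By the stricter rule used to name regions, 50 of the 14895 runs, 0.336%, lay below 0.273 times input in both flanks. That bound is the median of single far windows, while the summed far level was 0.373. Of these, chromosome 5:51942001-51946000 held 872 H3K4me3, 13 H3K36me3 and 20 input reads, with 9 and 8 H3K36me3 reads in flanks of 87 and 76 input reads. Chromosome 1:197066001-197070000 held 3079, 25 and 16 reads, and chromosome 14:44502001-44504000 held 697, 1 and 10. The right flanks of these last 2 had only 16 and 12 input reads, so their low H3K36me3 rests on few reads.

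H3K36me3 far from H3K4me3 was uncommon. Of the H3K36me3 windows, 5.84% lay 100 kb or more from any H3K4me3 window, against 54.6% of all windows. Of the 3048 H3K36me3 runs of 20 kb or longer, 1934 (63.5%) came within 10 kb of an H3K4me3 window and 68 lay 100 kb or more away. A long run has more windows that can lie near H3K4me3, so its share cannot be read against that of single windows. Among H3K36me3 runs of a single window 34.0% lay within 10 kb, against 12.7% of all windows. The longest far run covered 112 kb at chromosome 6:146234001-146346000 with 2708 H3K36me3, 156 H3K4me3 and 520 input reads, 7.82 times input for H3K36me3 and 0.283 times for H3K4me3. The run of 88 kb at chromosome 11:34124001-34212000 stood at 6.72 and 0.255 times, and that of 86 kb at chromosome 5:73432001-73518000 at 9.22 and 0.252 times. They lay 102, 160 and 126 kb from the nearest H3K4me3 window.

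The distance to H3K4me3 shortened as H3K36me3 rose, steeply up to about 2 times input and little beyond. Windows under 0.5 times input had a median distance of 252 kb (624501 windows), those at 0.5 to 1 times 112 kb and those at 1 to 2 times 40 kb. Windows at 2 to 4 times input lay at a median of 22 kb, those at 4 to 8 times at 20 kb and those at 8 times or more at 18 kb (23812 windows). H3K4me3 windows themselves were most frequent at intermediate H3K36me3. They made up 0.949% of windows under 0.5 times input, 4.27% at 1 to 2 times and 1.04% at 8 times or more.

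Outside H3K4me3 windows, the low level of H3K4me3 reads also varied with distance. It was 0.567 times input at 2 kb, 0.317 at 4 kb, 0.283 at 10 to 18 kb and 0.191 at 100 kb or more. Far windows under 0.5 times input in H3K36me3 had H3K4me3 at 0.172 times input, and those at 8 times or more at 0.353 times, 2.05 times as much. With windows sorted by H3K36me3 over the CD8 input, the values were 0.184 (0.184 to 0.185) and 0.267 (0.254 to 0.280), 1.45 times as much. At 10 to 18 kb the same sorting gave 0.265 at under 0.5 times and 0.273 at 8 times or more, with 0.310 at 1 to 2 times in between. H3K4me3 background was thus higher in far windows with H3K36me3, by less when the sorting input was another library. At 10 to 18 kb the lowest and highest H3K36me3 classes were nearly equal under the CD8 input, with higher levels in between. Sorted over the CD4 input, these 2 classes stood at 0.242 and 0.356.

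**Figure D5:**
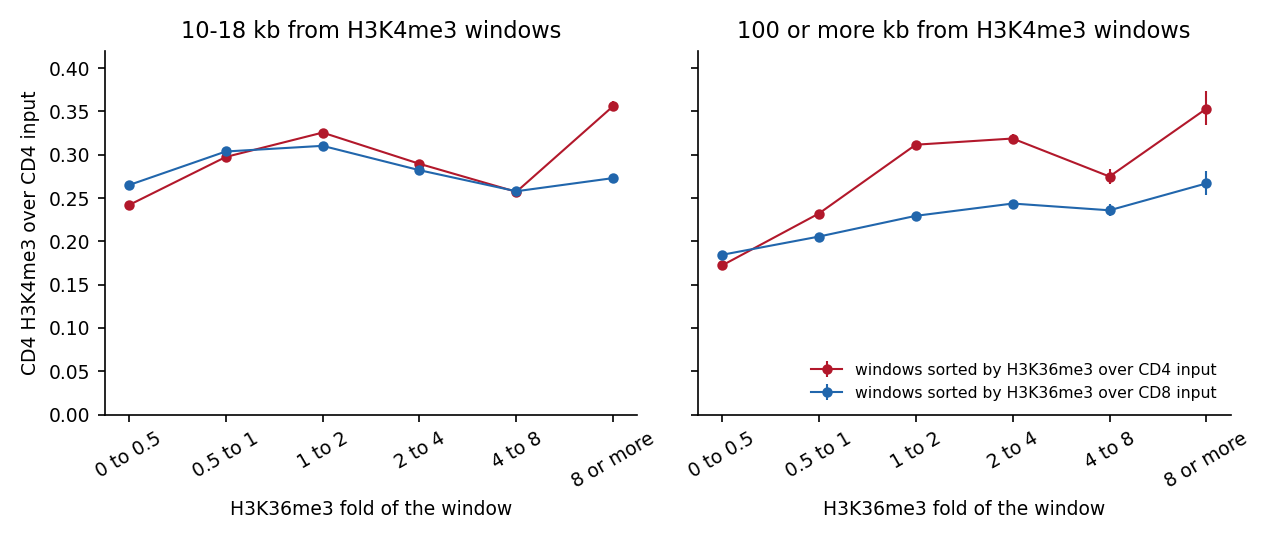
CD4 H3K4me3 over CD4 input (vertical axis) in windows outside H3K4me3 windows, by H3K36me3 fold (horizontal axis), 10 to 18 kb away (left) and 100 kb or more away (right), with 95% counting intervals. Windows were sorted by H3K36me3 over the same CD4 input (red) or over the CD8 input (blue). Far away the level goes from 0.172 to 0.353 in red and from 0.184 to 0.267 in blue.

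Over all 1153724 windows with levels, Spearman's rho of the marks was 0.282 over the shared input and 0.157 with H3K36me3 over the CD8 input. Within single distance classes outside H3K4me3 windows it was 0.141 to 0.266 and 0.0396 to 0.0949 in the same order. These are descriptions over neighbouring windows that share libraries and input.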

How the data were processed

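The deposited files give, for each aligned read, its chromosome, start and end only. All reads are 33 bp wide. Per the submitters' processing notes, coordinates refer to mm9. The aligner was, like the handling of repeated reads, not given in the sources used here. Read midpoints were counted in 2 kb windows on chromosomes 1 to 19 and scaled to RPM. Without strand, reads could not be shifted to the nucleosome centre. Summed levels have exact intervals conditional on the sum of both counts, and shares have Clopper-Pearson intervals. As the reads carry no molecular identifiers, repeated reads of 1 molecule cannot be told from reads of separate molecules. The intervals treat all reads as independent. Correlations used log2 ratios with 0.5 reads added.

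The libraries and lists were chosen with earlier results of these data known. The regions named are the 3 most extreme of each of 6 kinds: highest H3K4me3, highest H3K36me3, both marks, low flanks, far H3K36me3 runs and widest H3K4me3 runs. Chromosome 18 was counted but not named. Added after values were seen were the CD8 input under 1 mark, the thinned CD8 input, the bins by H3K4me3 reads, the isolated runs with their flanks (in place of windows at 10 to 18 kb), the run widths and chromosome X. Genes and sequences were not analysed here, so the gene lists were not applied. The calling of H3K4me3 windows and the H3K36me3 levels by distance class were tested on simulated data. The runs, flanks, profiles, level bins and correlations were not. Tools were matplotlib 3.10.9, SciPy 1.17.1, pandas 2.3.3 and NumPy 2.4.6 under Python 3.11.15.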

Additional observations from a re-analysis of the deposited data

Results flagged for a closer look

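Reads outside chromosomes 1 to 19 entered no comparison above. Scaled with the totals of chromosomes 1 to 19, some of their levels lay above input and others below. On chromosome X, H3K36me3 was 1.16 times input in 723 H3K4me3 windows, 1.58 at 2 kb, 2.02 at 4 kb, 2.03 at 6 to 8 kb, 1.85 at 10 to 18 kb and 1.47 at 20 to 48 kb. It fell to 0.372 at 100 kb or more, so the course of the other chromosomes was seen again, with a mean of 3.53 input reads per H3K4me3 window. On chromosome Y, H3K36me3 was 1.23 times input and H3K4me3 0.749 times. On unplaced sequence, H3K4me3 and H3K36me3 were 2.26 and 2.50 times input for chromosome 1, 2.57 and 1.90 for chromosome 4, 4.32 and 1.94 for chromosome 9, and 1.44 and 1.45 for chromosome X. On unplaced sequence of no known chromosome, H3K36me3 was 2.97 times input and H3K4me3 0.692 times. On mitochondrial DNA, which carries no histones, H3K4me3 was 2.06 times input from 316 reads against 145, and H3K36me3 0.632 times. On unplaced sequence of chromosome 8 H3K4me3 and H3K36me3 were 0.627 and 0.389 times input, of chromosome 13 0.269 and 0.585 times, and of chromosome Y 0.191 and 0.373 times.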

How the results depend on the processing

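Of 46 values under other settings, 22 stayed within the counting interval or 1.5 times the count, 23 moved and 1 reversed. Some of the 22 could not change under their setting. Among them are the 4 values under a floor of 1 input read. The count of H3K4me3 windows with windows of many input reads kept is another. The order of the levels (6 to 8 kb above 0 kb above 100 kb or more) was the same under each setting that recomputed it. With 1 read per position the levels were 1.18 at 0 kb and 0.390 at 100 kb or more, strong runs had 2.57 times the flank H3K36me3 of weak ones, and H3K36me3 within the strongest H3K4me3 windows was 2.61 times that of the weakest. With H3K4me3 at 8 times input the levels were 2.31 at 6 to 8 kb and 0.385 far away. With at least 50 reads they were 1.08, 2.28 and 0.381 at 0, 6 to 8 and 100 kb or more. With inputs pooled they were 1.19, 2.21 and 0.368, and the ratios were 1.33 within windows, 2.59 in flanks and 1.80 for far H3K4me3 by H3K36me3. With windows shifted by 1 kb the levels were 1.12, 2.16 and 0.371. With windows of many input reads kept the far level was 0.447. Windows of 1 kb gave 235843 H3K36me3 windows. The correlation in H3K4me3 windows reversed to -0.0509 on reads without input. The CD8 input under 1 mark, chosen after seeing the data, gave 1.22 within windows, 1.45 for far H3K4me3 and a correlation of 0.0317. The new windows and inputs change values by construction, and beyond that the cause was not tested. A floor of 1 input read was run for the summed levels at 0, 6 to 8 and 100 kb or more and for the count of H3K4me3 windows, and these 4 values did not move, since a window of 20 reads over the floor of 3 already passes 4 times input. It was not run for the fold bins, medians or named folds. The planned comparison at gene starts and bodies was not run for lack of an mm9 annotation. No paired analysis was possible because each group holds 1 library. Depth limits single 2 kb windows, with a mean of 5.43 H3K36me3 reads.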
